A study of Mus musculus with 2 samples.

Results

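The genes that present antigen on MHC class II were followed through 2 droplet single-cell RNA libraries of mouse spleen. All 10 were found by their symbols, with 1 row each, among the 26124 genes of the count tables. They were the β chain genes H2-Ab1 and H2-Eb1, the α chain gene H2-Aa, the invariant chain gene Cd74, the H2-DM genes H2-DMa, H2-DMb1 and H2-DMb2, the H2-O genes H2-Oa and H2-Ob, and the regulator Ciita.

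Class II molecules are pairs of an α and a β chain that show peptides from endocytosed material to CD4 T cells. The invariant chain covers the peptide groove until the pair reaches an acidic compartment, where H2-DM exchanges the invariant chain remnant for peptides and H2-O holds H2-DM back. CIITA, the protein of Ciita, does not itself bind DNA, and it switches these genes on through factors seated at paired sequence elements of their promoters, the X and Y boxes. Dendritic cells and B lymphocytes hold the genes on at rest, interferon-γ induces them in macrophages, and mouse T lymphocytes and erythroid cells are known to lack them.

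Both mice were aged 12 to 16 weeks, were untreated and were homozygous for Hba tm1Paz, so that mouse α-globin was deleted in each. The mouse labelled wild-type was heterozygous for Hbb tm1Tow and hemizygous for Tg(HBA-HBBs)41Paz, a human globin transgene with the sickle β chain, and did not sickle. The mouse labelled SCD, of the Berkeley sickle cell disease model, was homozygous for both and sickled. Each library came from 1 mouse, from spleen cells freed of red cells by lysis and pulled down with magnetic beads carrying anti-F4/80 antibody, F4/80 being a macrophage surface protein. The strain is of mixed background, and the class II haplotype of the mice was not examined. With 1 mouse per group no test between the groups was possible, and the intervals below are exact 95% intervals that cover counting error only. Where a pair of values is given without naming the libraries, the library labelled wild-type comes first.

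The promoter sequences are shown first, because the factors that recruit CIITA are known to bind there. Of the 10 genes, 7 had an entry in the RefSeq promoter table for GRCm38.p6, which covers 250 bases before to 50 bases after each annotated start. The letters AACNNATG, searched as the X box on both strands, were in 8.86% of 32851 promoters, and GATTGG, searched as the Y box on both strands, was in 16.1%. With X before Y in 1 orientation and 25 to 35 bases between their first letters, a spacing set after the matches had been seen, both were in 12 promoters, or 0.0365%. Of these 12, 4 were promoters of H2-Eb1, H2-DMb1, H2-DMb2 and H2-Ob, and 1 was that of H2-Eb2, a neighbouring β chain gene. The X letters were not matched in the windows of H2-Oa, H2-Aa and either H2-DMa start, and the Y letters were matched in each of these but 1 of the H2-DMa windows. The windows of 4 genes, 76 bases each, are printed below 5′ to 3′ on the gene's strand, with the X and Y letters in capitals.
H2-Eb1, chr17:34305747-34305822, + strand, X box 89 and Y box 60 bases before the start, inside an intron of Gm20513 on the other strand: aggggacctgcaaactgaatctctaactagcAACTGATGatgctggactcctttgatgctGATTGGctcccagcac
H2-DMb2, chr17:34145098-34145173, + strand, X box 121 and Y box 91 bases before the start, inside an intron of a longer H2-DMb2 transcript: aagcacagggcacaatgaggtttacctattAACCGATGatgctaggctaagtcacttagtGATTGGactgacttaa
H2-Ob, chr17:34238787-34238862, + strand, X box 85 and Y box 58 bases before the start, outside annotated exons and introns: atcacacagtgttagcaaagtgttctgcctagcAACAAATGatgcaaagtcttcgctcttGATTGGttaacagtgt
H2-Aa, chr17:34287857-34287932, − strand, Y box 49 bases before the start and no match to the X letters, outside annotated exons and introns: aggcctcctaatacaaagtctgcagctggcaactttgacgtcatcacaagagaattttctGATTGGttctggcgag
The H2-DMb1 and H2-DMb2 windows, from copies of 1 gene that lie side by side, had the same base at 63 of 76 positions, or 82.9%. The spacing between the first letters of X and Y was 30 bases in both, against 29 in H2-Eb1 and 27 in H2-Ob. A match to letters is a description of the sequence and does not show that a factor was bound there.

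Apart from Cd74 on chromosome 18 and Ciita on chromosome 16, the genes lie in the H2 complex of chromosome 17. In GRCm38, H2-Oa (ENSMUSG00000024334) spans chr17:34092340-34095234, H2-DMa (ENSMUSG00000037649) chr17:34119541-34139101, H2-DMb2 (ENSMUSG00000037548) chr17:34143307-34151555 and H2-DMb1 (ENSMUSG00000079547) chr17:34153072-34160230. H2-Ob (ENSMUSG00000041538) spans chr17:34238903-34254414, H2-Ab1 (ENSMUSG00000073421) chr17:34257689-34269419, H2-Aa (ENSMUSG00000036594) chr17:34282744-34287823 on the other strand and H2-Eb1 (ENSMUSG00000060586) chr17:34305867-34316674. Ciita (ENSMUSG00000022504) spans chr16:10480059-10528418, and Cd74 is ENSMUSG00000024610. The α chain gene of the second pair, listed as the polymorphic pseudogene H2-Ea-ps at chr17:34341959-34344645, had 0 UMIs in 31697 cells, which allows up to 0.0280 and 0.0462 CPM (counts-per-million of all UMIs summed) in the libraries labelled wild-type and SCD. H2-Eb1, whose protein pairs with that α chain, was counted in all classes described here.

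There were 24144 barcodes with 145953464 UMIs under the label wild-type and 15442 with 73986356 under the label SCD. After limits on genes and on mitochondrial and ribosomal-protein UMIs, 19418 and 12279 cells remained, with a median of 4116 and 4571 UMIs, and 65 of their barcode sequences were in both libraries. The β-globin genes went against the labels. Among erythroid-like cells Hbb-bs stood at 140 (135 to 145) and 44319 (44015 to 44625) CPM (UMIs summed over the cells), although Hbb tm1Tow deletes it and the mouse labelled SCD is given as homozygous. Every direction below is therefore one between libraries as labelled. Cells were clustered without the 10 genes and named from other markers, which gave 1910 and 3331 cells like type 2 conventional DCs (cDC2-like), 439 and 637 like Ccr7-bearing mature DCs (Ccr7 DC-like), 554 and 1728 B-like, 1150 and 1454 Ly6c-high monocyte-like, 463 and 1080 Ly6c-low monocyte-like, and 4786 and 1633 like red pulp macrophages (RPM-like). The macrophages with erythroid markers, named after erythroblastic islands (EBI-like), numbered 4880 and 585, erythroid-like cells 3087 and 231, and T-like cells 44 and 67. The classes take shares that the beads, the lysis and the filters also set.

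H2-Ab1 showed the order of the classes. Its level in the library labelled wild-type was 4204 CPM in cDC2-like, 2136 in Ccr7 DC-like and 1662 in B-like cells, and then fell to 397 in Ly6c-high monocyte-like, 325 in EBI-like, 315 in Ly6c-low monocyte-like, 237 in erythroid-like, 217 in T-like and 181 CPM in RPM-like cells. The intervals of EBI-like and Ly6c-low monocyte-like cells overlapped, as did those of T-like cells (143 to 316) with erythroid-like and with RPM-like cells (175 to 188). Under the label SCD the first 3 classes had the same order, with 6636, 4137 and 2394 CPM. Behind them came Ly6c-high monocyte-like cells at 1506, RPM-like at 1344 (1318 to 1370), EBI-like at 1156, T-like at 1145 (1007 to 1295), Ly6c-low monocyte-like at 871 and erythroid-like at 627 CPM, and of neighbours only EBI-like and T-like overlapped. RPM-like cells thus stood last among the 9 classes in the first library and behind 4 of them in the second.

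Cells that should lack class II stand here for free RNA, and their level was not the same in the 2 libraries. The T-like level was no floor, since the CPM of H2-Oa in RPM-like cells was 0.122-fold (0.0454 to 0.459) and 0.0959-fold (0.0618 to 0.153) of it. T-like cells held 27 and 251 H2-Ab1 UMIs in all, which is 0.614 and 3.75 per cell. In erythroid-like cells the level was 1.69 and 4.98 UMIs per cell. T-like cells were not evenly covered in either library, since 5 of 44 and 7 of 67 cells carried 74.1% and 55.0% of the H2-Ab1 UMIs. No H2-Ab1 UMI was found in 32 and 28 T-like cells. Their summed B lymphocyte markers were at 298 and 730 CPM (B-like cells: 17710 and 21792 CPM), and their summed cDC2 markers at 274 and 383 CPM, with 5 and 4 of 9 genes at 0 (cDC2-like cells: 931 and 1414 CPM). Of T-like cells, 0% and 10.4% were marked as doublets, and of erythroid-like cells 14.6% and 21.2%. The highest 10% of erythroid-like cells carried 83.2% and 64.3% of their H2-Ab1 UMIs. The part of doublets and of free RNA in these UMIs was not tested.

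**Figure D1:**
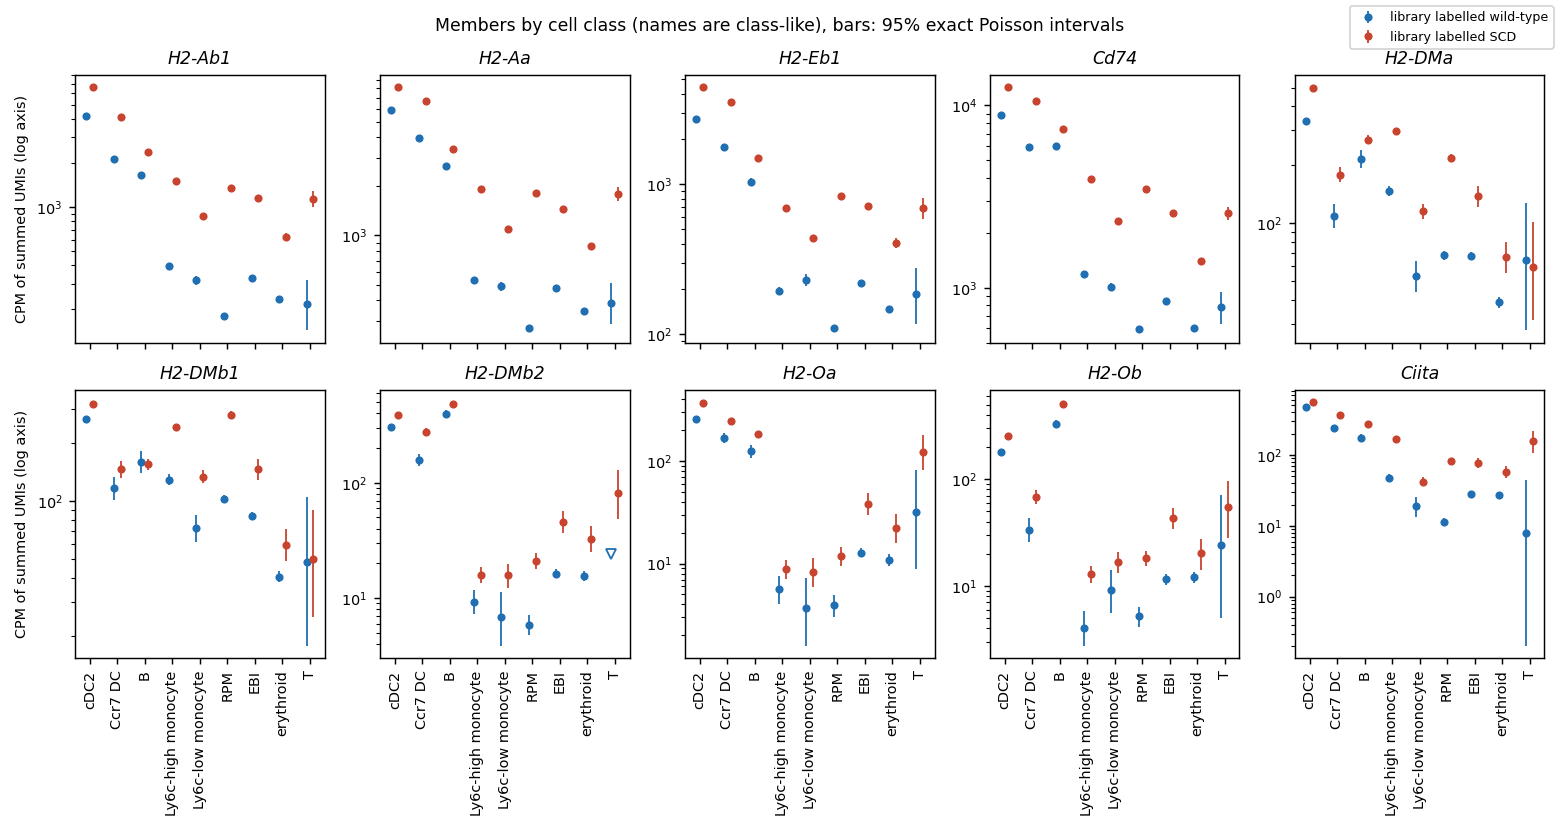
Level of each of the 10 genes as CPM of summed UMIs (log axis, a separate scale in each panel) in 9 cell classes, for the library labelled wild-type (blue) and the library labelled SCD (red). Points are 1 library each, bars are exact 95% Poisson intervals, and the open triangle is the limit that 0 UMIs allow; cDC2-like cells were at 4204 and 6636 CPM of H2-Ab1, RPM-like cells at 181 and 1344.

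Between the libraries, all 10 genes were at least 2-fold higher over all kept cells of the library labelled SCD, where 12.0% of 13015 genes with 100 or more UMIs were and 9.78% were lower by as much. The median log2 ratio was 1.79 for the 10 genes and 0.18 for all genes. The make-up of the libraries also differed, since cDC2-like cells were 9.84% and 27.1% of kept cells, and B-like cells were 2.85% and 14.1%. The cDC2-like cells carried 47.5% and 59.7% of all H2-Ab1 UMIs, and RPM-like cells 3.45% and 4.76%. Fewer cells of a type and less RNA per cell can be told apart only within classes, which follow.

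The classes that hold class II on at rest had the smaller ratios. In cDC2-like cells 0 of 10 genes passed 2-fold, where 1.25% of 10661 genes were higher by that much and 3.12% lower. All 10 were higher, with a median log2 ratio of 0.51 against 0.05 for all genes, from 0.21 (0.16 to 0.26) for Ciita to 0.70 (0.68 to 0.72) for H2-Eb1. In B-like cells 0 of 10 passed, where 1.20% of genes did and 1.38% were lower, and 9 were higher, H2-DMb1 being at 160 (140 to 182) and 155 (145 to 165) CPM. In Ccr7 DC-like cells 2 of 10 passed, where 2.31% of genes did and 5.93% were lower. They were H2-Eb1, at 1767 and 3544 CPM or 2.01-fold, and H2-Ob, with a log2 ratio of 1.02 (0.60 to 1.45). Both lie at the 2-fold limit, and the counting interval of each crosses it. H2-Ob had 64 and 185 UMIs and reached the minimum UMI count set for a gene through the library labelled SCD. Its passing is therefore not read as a result about it.

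Among the classes in which all 10 genes were measured, RPM-like cells had the highest median ratio over their clusters as a whole, a ranking that did not hold for the chain genes and Cd74 in the cluster with most of the cells labelled SCD. All 10 genes were at least 2-fold higher in those of the library labelled SCD, where 9.09% of 10033 genes were and 4.32% were lower, with a median log2 ratio of 2.19 against 0.20 for all genes. H2-Ab1 went from 181 to 1344 CPM, a log2 ratio of 2.89 (2.83 to 2.95). Its partner H2-Aa stood at 269 and 1834 CPM, and H2-Eb1 at 111 and 834 CPM. The invariant chain gene Cd74 went from 594 to 3468 CPM, with a log2 ratio of 2.55 (2.51 to 2.58). The regulator Ciita went from 11.3 (197 UMIs) to 81.5 CPM (621 UMIs), with a log2 ratio of 2.84 (2.61 to 3.08). These 5 genes lay between 2.55 and 2.91, and the 5 H2-DM and H2-O genes between 1.45 (H2-DMb1) and 1.84 (H2-DMb2). H2-Oa had 68 and 90 UMIs, and H2-Ob had 90 and 138. Both were under the minimum UMI count set for a gene in the library labelled wild-type taken alone.

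T-like cells, which stand for free RNA, differed in the same direction, so the ratio in RPM-like cells has to be read beside theirs. In T-like cells the log2 ratio of H2-Ab1 was 2.40 (1.82 to 3.03) and that of Cd74 1.71 (1.40 to 2.04). With H2-Aa and H2-Eb1, these were the 4 genes that reached 100 UMIs over both libraries, each through the library labelled SCD, so that their all being 2-fold higher, where 3.74% of only 481 genes were and 2.70% were lower, is no result about them. For erythroid-like cells 7 of 10 genes passed, where 1.66% of genes did and 6.50% were lower, and the log2 ratio of H2-Ab1 was 1.40. Set against T-like cells of its own library, the CPM of H2-Ab1 in RPM-like cells was 0.834-fold (0.572 to 1.27) and 1.17-fold (1.04 to 1.34). The first is at the T-like level and was not shown to be above background. Counted per cell in place of CPM, since RPM-like cells had a median of 2159 and 4126 UMIs and T-like cells 2504 and 3210, these were 1.07-fold (0.735 to 1.63) and 1.67-fold (1.48 to 1.91). Against erythroid-like cells, they were 0.765-fold and 2.14-fold on CPM and 0.388-fold and 1.26-fold per cell. The CPM ratio over T-like cells passed 1 in the library labelled wild-type with a limit of 200 genes per cell and with scran size factors, and reached a log2 value of 1.21 in the library labelled SCD when each library was clustered on its own.

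The spread over cells separated RPM-like cells of the library labelled SCD from both references. H2-Ab1 had a median of 5 UMIs in them, with 8.70% of cells at 0 and 31.9% of the UMIs in the highest 10% of cells. In T-like cells of that library the median was 1 UMI, with 41.8% of cells at 0, and the mean without the highest 10% of cells was 1.88 UMIs against 4.75 in RPM-like cells. In the library labelled wild-type the median was 0 in each class, with 70.1% of RPM-like and 72.7% of T-like cells at 0. After thinning each cell to 1000 UMIs, which left out 688 and 138 RPM-like cells, H2-Ab1 was found in 13.6% (12.6 to 14.7) and 69.6% (67.2 to 72.0) of them, where the unthinned shares were 29.9% and 91.3%. The thinned shares in T-like cells were 9.30% (2.59 to 22.1) and 38.5% (26.7 to 51.4), and in erythroid-like cells 11.3% and 31.1%. The share in RPM-like cells was above both in the library labelled SCD, while for the library labelled wild-type no order is read, since the share and the CPM ran in opposite directions.

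**Figure D2:**
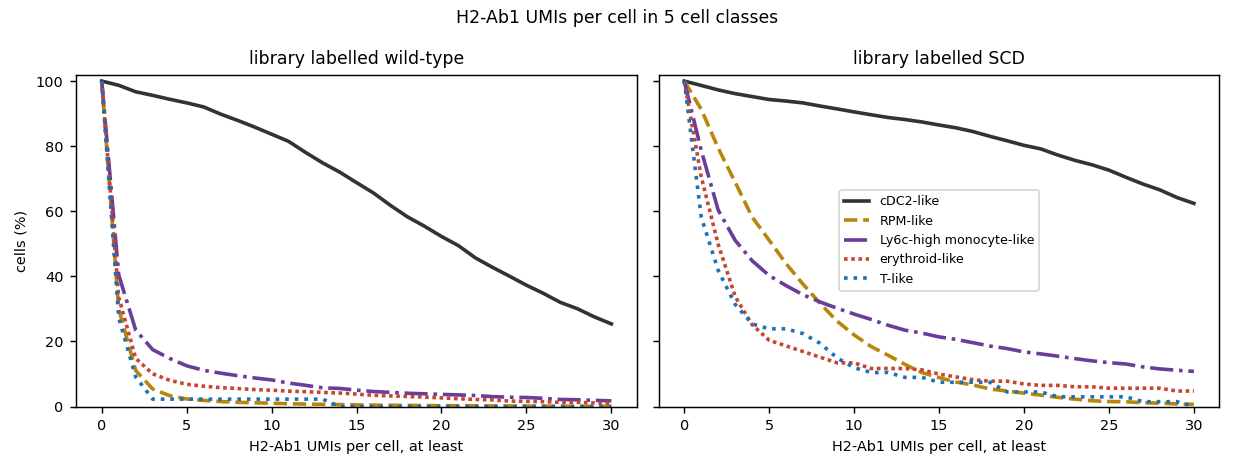
Share of cells (vertical axis, %) with at least the number of H2-Ab1 UMIs on the horizontal axis, in 5 classes of the library labelled wild-type (left) and the library labelled SCD (right), without thinning. At 1 UMI the RPM-like line stands at 29.9% on the left and 91.3% on the right, and the T-like line at 27.3% and 58.2%.

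Markers of other class II-bearing cells also moved in RPM-like cells. Summed cDC2 markers reached 46.9 and 100.1 CPM there, with 0 of 9 at 0 in either library, against 931 and 1414 CPM in cDC2-like cells. Summed B lymphocyte markers were at 355 and 623 CPM, with 0 of 10 genes at 0. The 8 red pulp macrophage markers were at 16762 and 13925 CPM, and the Ly6c-low monocyte list, which macrophages partly share, at 747 and 1516 CPM. Their part in the class II values was not tested. The RPM-like cells of the libraries also fell into different clusters. The first had 1101 and 4 cells, those of the library labelled wild-type at 175 CPM of H2-Ab1. The next had 3630 cells at 184 CPM and 67 at 1022 (862 to 1202) CPM. The last had 55 cells at 467 (352 to 608) CPM and 1562 at 1351 CPM. The median log2 ratio of H2-Ab1, H2-Aa, H2-Eb1 and Cd74 was 2.83 over RPM-like cells, 2.39 in the second of these clusters alone and 1.54 in the last alone, where the same genes had log2 ratios of 1.73 to 1.92 in Ly6c-high monocyte-like cells. With each library clustered on its own, which named 2299 cells of the library labelled SCD RPM-like, it was 3.82.

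**Figure D3:**
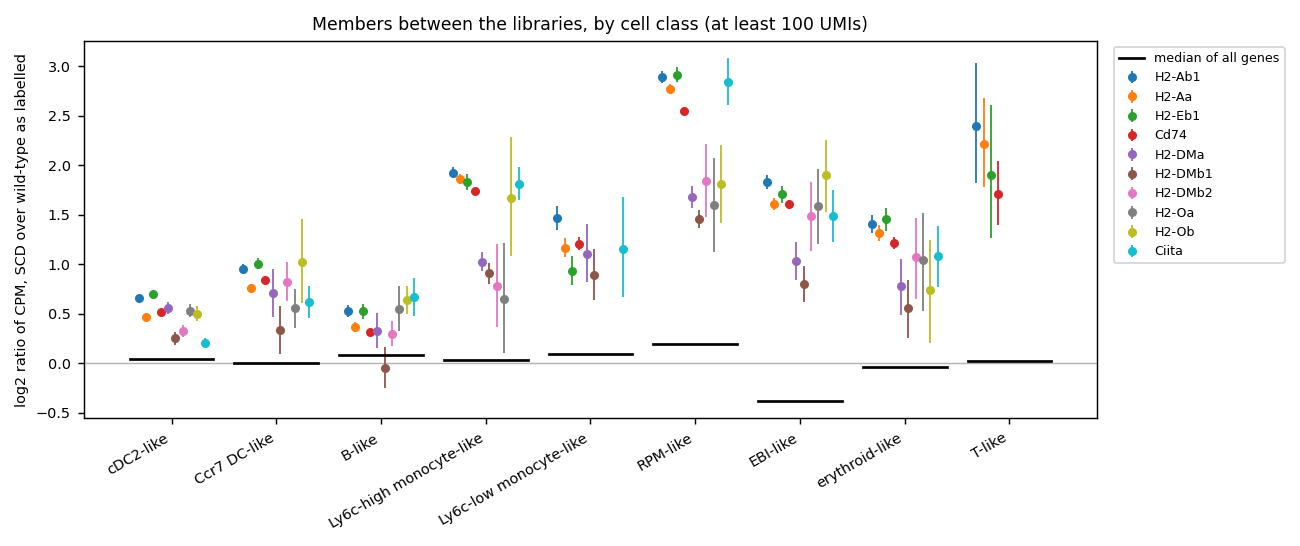
Log2 ratio of CPM, library labelled SCD over library labelled wild-type, for each of the 10 genes (colours) in 9 cell classes, with exact 95% intervals for counting error, for genes with at least 100 UMIs. Black lines are the medians of all genes with at least 100 UMIs; the 10 genes have a median of 2.19 in RPM-like and 0.51 in cDC2-like cells, and T-like cells show 4 genes only.

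In monocyte-like cells, as in T-like and erythroid-like cells, a part of the cells carried most of the H2-Ab1 UMIs. In Ly6c-high monocyte-like cells 7 of 10 genes were 2-fold higher in the library labelled SCD, where 2.37% of genes were and 3.51% were lower, and H2-Ab1 was at 397 and 1506 CPM. A median of 0 and 3 H2-Ab1 UMIs per cell stood beside means of 2.63 and 9.74. The highest 10% of cells carried 77.2% and 50.6% of the UMIs, and the 90th percentile over cells was 7 and 30 UMIs. For H2-DMb1, H2-DMb2 and H2-Oa the log2 ratio was 0.91, 0.78 and 0.65, and these were the genes that did not pass. Of those that did, H2-Ob had 31 and 121 UMIs. It reached the minimum UMI count set for a gene through the library labelled SCD, so its passing is not read as a result. In Ly6c-low monocyte-like cells 5 of 7 genes with enough UMIs passed, where 2.79% of genes did and 2.68% were lower. Ciita, among the 5, had 41 and 198 UMIs and also reached the minimum through the library labelled SCD, so the same limit holds for it. H2-Ab1 was at 315 and 871 CPM, the second of which is under the T-like level of 1145 CPM. In EBI-like cells 9 of 10 passed, where 2.72% of genes did and 14.6% were lower, and H2-DMb1 was the one that did not, at 83.8 and 146 CPM. Their median depth was 3934 and 2235 UMIs, and counted per cell the differences were smaller. H2-Ab1 had 1.84 and 3.64 UMIs per cell, H2-DMb1 0.474 and 0.460 and H2-Ob 0.0652 and 0.135. The second H2-Ob value lay under the 0.179 of T-like cells. The share of all genes past 2-fold was not counted per cell, so no number of genes is given on that scale. In EBI-like cells of the library labelled SCD, H2-Ab1 and Cd74 were at the T-like level, with intervals of the CPM ratio from 0.886 to 1.16 and from 0.916 to 1.09. No gene of the 10 was lower by 2-fold in any class.

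H2-DMa and H2-DMb1, whose products load peptides, stood further above T-like cells than the chain genes did in RPM-like cells of the library labelled SCD, on 13 and 11 T-like UMIs, and H2-DMb2 stood below them at 0.254-fold (0.156 to 0.440). H2-DMb1, a β chain gene of H2-DM, was at 102.5 (1780 UMIs) and 281 CPM (2141 UMIs) in RPM-like cells, against 48.3 (6 UMIs) and 50.2 CPM (11 UMIs) in T-like and 40.4 and 59.4 CPM in erythroid-like cells. That is 2.12-fold (0.973 to 5.79) and 5.60-fold (3.12 to 11.2) over T-like cells, and 2.54-fold (2.34 to 2.75) and 4.73-fold (3.90 to 5.79) over erythroid-like cells. Per cell the ratio over erythroid-like cells, which had a median of 5920 and 6791 UMIs, was 1.29-fold (1.19 to 1.40) and 2.78-fold (2.29 to 3.40). H2-DMa, the α chain gene, had 67.9 and 217 CPM in RPM-like cells and 64.4 and 59.3 CPM in T-like cells, or 1.06-fold (0.534 to 2.45) and 3.66-fold (2.13 to 6.89). Thinned to 1000 UMIs, 9.71% and 24.0% of RPM-like cells held H2-DMb1, against 4.65% and 3.08% of T-like and 4.31% and 7.02% of erythroid-like cells.

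H2-DMb2, the other β chain gene, was spread over the classes in another way. It was at 394 and 485 CPM in B-like cells, 307 and 385 in cDC2-like and 157 and 277 in Ccr7 DC-like cells, but only 5.81 and 20.9 CPM in RPM-like and 9.30 and 15.9 CPM in Ly6c-high monocyte-like cells. T-like cells held 0 UMIs of it in the library labelled wild-type, which allows up to 24.1 CPM, and 18 in the library labelled SCD. Of the UMIs of both β chain genes together, H2-DMb2 took 71.1% and 75.8% in B-like, 53.4% and 54.7% in cDC2-like, 57.5% and 65.5% in Ccr7 DC-like, 6.72% and 6.18% in Ly6c-high monocyte-like and 5.37% (4.39 to 6.49) and 6.91% (5.91 to 8.03) in RPM-like cells. Erythroid-like cells held an intermediate share of 27.8% (25.3 to 30.4) and 35.5% (28.3 to 43.2), and T-like cells of the library labelled SCD 62.1% (18 of 29 UMIs, 42.3 to 79.3). RPM-like cells therefore held the 2 genes in a proportion that neither reference of the library labelled SCD had. With each library clustered on its own the share in RPM-like cells of the library labelled SCD was 28.7%, inside the erythroid-like interval, and with at least 200 genes per cell it was 12.6%. Reads that fit both copies may be assigned to either or dropped in counting, so the shares are compared between classes and not read as amounts. How alike the 2 transcripts are was not measured.

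**Figure D4:**
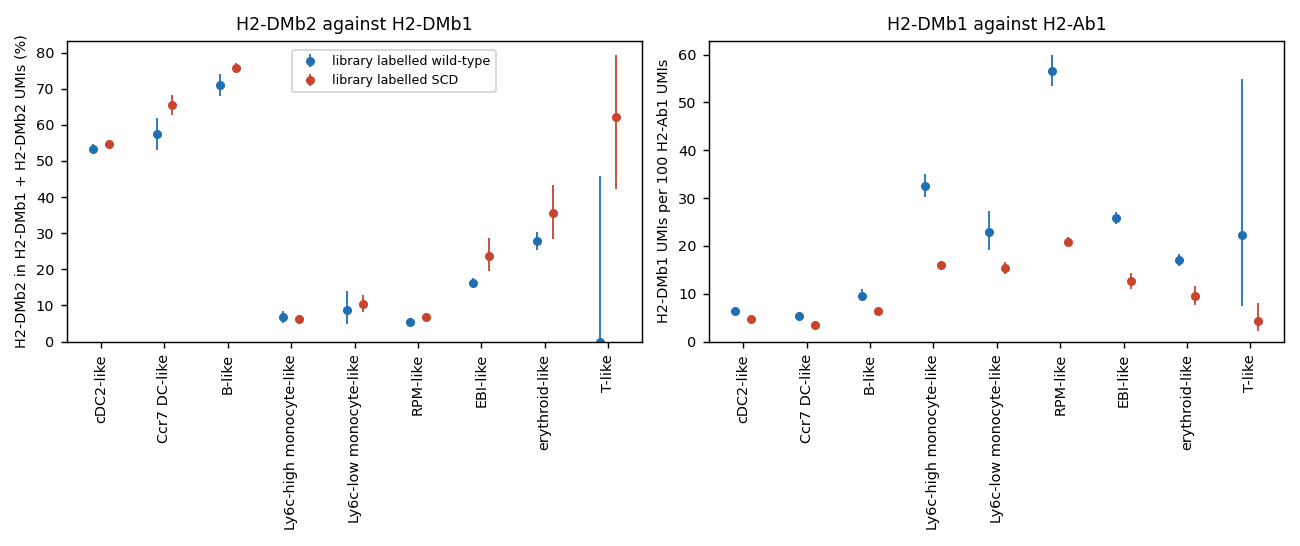
Left, H2-DMb2 as a share (%) of the UMIs of H2-DMb1 and H2-DMb2 together; right, H2-DMb1 UMIs per 100 H2-Ab1 UMIs, in 9 cell classes of the library labelled wild-type (blue) and the library labelled SCD (red), with exact 95% binomial intervals. The DC and B-like classes lie between 53.4% and 75.8% on the left and the RPM-like and monocyte-like classes between 5.37% and 10.5%; on the right, RPM-like cells stand at 56.6 and 20.9.

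The same proportions differed inside the cDC2-like class. Its cluster led by the lectin genes Cd209a, Clec10a and Clec9a (269 and 651 cells) had H2-DMb2 at 32.3% and 32.2% of the pair, where the largest cDC2-like cluster (1476 and 2488 cells) had it at 57.1% and 61.2% and the cycling one (165 and 192 cells) at 60.2% and 61.6%. H2-Ob followed, at 83.9 and 137 CPM in the Cd209a cluster and 211 and 313 CPM in the largest. H2-Ab1 differed less between these clusters, with 3867 and 6082 CPM in the Cd209a cluster and 4345 and 7087 CPM in the largest. Of the Cd209a cluster's cells, 40.5% were marked as doublets, against 7.39% of the largest cluster's, over both libraries, whose marks were set in different ways. The Cd209a cluster met the naming limits for 4 of 9 cDC2 markers and also for 3 of 8 Ly6c-low monocyte markers.

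Set against H2-Ab1 in the same cells, H2-DMb1 stood at 56.6 (53.4 to 59.99) and 20.9 (19.9 to 21.9) UMIs per 100 H2-Ab1 UMIs in RPM-like cells. The number was 32.6 and 16.1 in Ly6c-high monocyte-like, 9.62 and 6.47 in B-like, 6.37 and 4.81 in cDC2-like and 5.44 and 3.53 in Ccr7 DC-like cells. It was 17.1 and 9.47 in erythroid-like and 22.2 (7.50 to 54.9) and 4.38 (2.16 to 7.98) in T-like cells. The 56.6 of RPM-like cells rests on H2-Ab1 that was itself at the T-like level in the library labelled wild-type. In each of these 7 classes H2-DMb1 was lower relative to H2-Ab1 in the library labelled SCD, with intervals that overlapped in T-like cells alone, and separate clustering brought the second RPM-like value to 11.1. RPM-like cells carried 15.7% and 13.8% of all H2-DMb1 UMIs, against 3.45% and 4.76% of all H2-Ab1 UMIs, and were 24.6% and 13.3% of kept cells. Their H2-DMb1 level, 102.5 and 281 CPM, stood beside 106 and 238 CPM over all kept cells.

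Of the H2-O genes, H2-Ob was highest in B-like and H2-Oa in cDC2-like cells. H2-Ob, the β chain gene of the inhibitor, was at 328 (300 to 358) and 511 (493 to 529) CPM in B-like, 179 and 253 in cDC2-like, and 33.6 and 68.2 CPM in Ccr7 DC-like cells. In RPM-like cells it was at 5.18 (90 UMIs) and 18.1 CPM (138 UMIs), under the T-like values of 24.1 (3 UMIs) and 54.7 CPM (12 UMIs), and was not shown to be above background there. In Ccr7 DC-like cells H2-Ob was 1.39-fold (0.456 to 6.93) and 1.25-fold (0.697 to 2.46) the T-like level, so it was not shown to be above T-like cells. Erythroid-like cells, the other reference, were lower, at 12.1 (10.6 to 13.6) and 20.1 (14.2 to 27.8) CPM of H2-Ob. Per 100 H2-Ab1 UMIs, H2-Ob took 19.7 and 21.3 in B-like, 4.25 and 3.81 in cDC2-like and 1.57 and 1.65 in Ccr7 DC-like cells. H2-Oa, its α chain partner, stood at 125 and 183 CPM in B-like, 256 and 369 in cDC2-like and 167 and 245 in Ccr7 DC-like cells. On CPM, Ccr7 DC-like cells thus had less of both H2-O genes than cDC2-like cells. Per 100 H2-Ab1 UMIs this held for H2-Ob only, since H2-Oa took 7.82 and 5.93 in Ccr7 DC-like and 6.08 and 5.56 in cDC2-like cells. In RPM-like cells H2-Oa was at 3.92 and 11.8 CPM, also under the T-like values of 32.2 and 123 CPM.

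Ciita followed the chains in level. It was at 477 and 551 CPM in cDC2-like, 240 and 367 in Ccr7 DC-like, 175 and 276 in B-like and 48.1 and 169 in Ly6c-high monocyte-like cells. Per 100 H2-Ab1 UMIs this was 11.4 and 8.30 in cDC2-like, 11.2 and 8.88 in Ccr7 DC-like, 10.5 and 11.5 in B-like and 12.1 and 11.2 in Ly6c-high monocyte-like cells. RPM-like cells were at 6.26 (5.39 to 7.23) and 6.06 (5.58 to 6.57) per 100, Ly6c-low monocyte-like cells at 5.97 (4.24 to 8.18) and 4.81 (4.15 to 5.55), EBI-like cells at 8.56 and 6.76 and erythroid-like cells at 11.4 and 9.12. The T-like values rested on 1 and 34 Ciita UMIs, at 3.70 (0.0905 to 22.5) and 13.5 (9.18 to 19.4). In the library labelled SCD the Ciita level of RPM-like cells was 0.526-fold (0.372 to 0.766) that of T-like cells. It was 1.43-fold (1.16 to 1.77) that of erythroid-like cells, and per cell 0.837-fold (0.679 to 1.04). By level it was thus not clearly above free RNA. A Ciita UMI was found in 26.0% (23.9 to 28.2) of these RPM-like cells. The share was 14.9% (7.40 to 25.7) in T-like and 16.0% (11.5 to 21.4) in erythroid-like cells, and only the erythroid-like interval lay below. Thinned as for H2-Ab1, the share was 7.83% (6.52 to 9.31) in RPM-like cells. It was 3.08% (0.375 to 10.7) in T-like and 4.39% (2.12 to 7.92) in erythroid-like cells, with overlapping intervals. In the library labelled wild-type the 11.3 CPM of Ciita in RPM-like cells lay under the 27.0 CPM of erythroid-like cells. T-like cells there held 1 UMI of it.

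Over 19 pairs of class and library with at least 50 cells, the 4 genes that followed H2-Ab1 most closely were all from the list of 10. On log2(CPM + 1), Pearson's r was 0.996 for H2-Aa, 0.992 for H2-Eb1, 0.9898 for Cd74 and 0.972 for Ciita, then 0.853 for H2-DMb2, 0.844 for H2-Oa, 0.803 for H2-Ob, 0.778 for H2-DMa and 0.739 for H2-DMb1. Outside the list, among 12216 genes, the nearest were Scn2b (0.913), Nfkbie (0.897), Doc2g (0.894), S100pbp (0.881) and Scimp (0.878). The pairs share their libraries and the free RNA in them, and the values are a description.

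Of 26 other genes of the pathway, 24 had at least 100 UMIs in RPM-like cells, 5 were 2-fold higher in the library labelled SCD and 0 lower, beside 9.09% and 4.32% of all genes. Ifi30 was not analysed here, and H2-Ea-ps had no UMIs. Of the 7 factors at class II promoters, Rfx5, the DNA-binding subunit at the X box, went from 16.5 to 35.7 CPM, with a log2 ratio of 1.11 (0.87 to 1.36), and 6 stayed within 2-fold, among them the Y box factors Nfya, Nfyb and Nfyc. On the route from interferon-γ to Ciita, Irf1 was at 86.4 and 212 CPM (log2 ratio 1.30), and the receptor genes Ifngr1 and Ifngr2 and the kinase genes Jak1 and Jak2 stayed within 2-fold. The 4 measured genes of peptide making and invariant chain trimming, among them the cathepsin genes Ctss and Ctsl, stayed within 2-fold, as did both ubiquitin ligase genes of class II turnover, March1 at 217 and 220 CPM and March8 at 111 and 91.1 CPM. Of 3 costimulation genes, Cd80 passed, at 32.5 and 69.7 CPM (1.10), and Cd86 was at 171 and 291 CPM (0.77). H2-Eb2 passed at 7.14 and 18.9 CPM (1.40), under the T-like values of 16.1 and 68.4 CPM.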

How the data were processed

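The authors aligned the reads of 2 droplet libraries made with 10x 3′ chemistry, 1 per group, and deposited filtered matrices of unnormalized UMI counts. The labels name Cell Ranger 4.0.0 and GRCm38.p6, and the matrix headers software version 3.1.0. The limits for keeping a cell were 500 to 5000 genes, less than 15% of UMIs mitochondrial and less than 30% from ribosomal proteins (19418 and 12279 cells). For clustering, cells were scaled with scran 1.30.0 (R 4.3.3), and the 2000 most variable genes, without the 10 genes studied, gave 30 principal components, 15 neighbours and Leiden clusters at resolution 1 (scanpy 1.11.5). Also left out of these were H2-Eb2, H2-Ea-ps, the hemoglobin genes, Marco, a set of heme and iron genes and sex-linked genes. The alternative with all genes put all of them back together. Doublets were scored with Scrublet and left in: 13.9% of cells of the library labelled SCD passed its threshold and 0% of the other, whose highest-scoring 10% were taken in the alternative without doublets.

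Clusters were named from marker genes, under limits chosen once a first clustering was known: at least 3 markers found in 10% of cells, at 2 times their level in the remaining cells, or, for macrophages, 4 times that in the main B lymphocyte-like cluster. Clusters that were mostly marked as doublets, or led by another class, stayed unnamed. Among the former was a cluster of 596 and 23 cells, 55.9% of them marked, so that its lack of a name rests on the set 10%. Levels are CPM of UMIs summed per class and library. Intervals are exact 95% Poisson (levels), Clopper-Pearson (shares) and conditional binomial (ratios) intervals for counting error, and 0 counts were taken to allow 3. A gene with at least 100 UMIs counted as higher at 2-fold. Shares of cells were also taken after thinning to 1000 UMIs. The ratio step was checked on simulated counts.

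The 10 genes were all named; of a pathway list, those past 2-fold in RPM-like cells, except one that is counted but not reported here; and the 5 genes most correlated with H2-Ab1. Other names were chosen after their values were seen. The members, lists and markers were chosen with earlier results of these data known. Alternatives covered cell filters, doublets, scaling, clustering, weights, free RNA and thinning. Positions are from GENCODE on GRCm38 and promoters from RefSeq (GRCm38.p6); windows over exons are not printed.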

Additional observations from a re-analysis of the deposited data

How the results depend on the processing

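No paired analysis was possible because each group is 1 library and no test was made. The median log2 ratio of H2-Ab1, H2-Aa, H2-Eb1 and Cd74 between the libraries was 1.89 over all kept cells, 2.83 in RPM-like and 0.90 in Ccr7 DC-like cells, and kept its sign under every alternative that gave a value. Over all kept cells it was 1.87 with at least 200 genes per cell, 1.91 without limits on mitochondrial and ribosomal-protein UMIs, 1.98 without doublets, 1.70 with scran size factors, 1.90 with hemoglobin and immunoglobulin genes out of the total, 1.76 with each cell weighing the same and 1.82 with the CPM of T-like cells subtracted. In RPM-like cells it was 2.70 with at least 200 genes, 2.48 with scran, 3.34 with all genes in the clustering, 3.82 with each library clustered on its own, 2.67 with equal weights and, by alternatives chosen after seeing the data, 3.19 as UMIs per cell and 2.39 and 1.54 in the second and last of its clusters alone. With T-like cells subtracted it could not be given, since values in the library labelled wild-type came to 0 or below. In Ccr7 DC-like cells it was 0.84 with at least 200 genes, 0.78 without doublets, 0.68 with scran, 0.84 and 0.77 at resolutions 0.5 and 2, 0.83 with all genes, 0.69 with equal weights and 0.65 with T-like cells subtracted.

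H2-Ab1 in RPM-like over T-like cells, as a log2 ratio, was -0.26 in the library labelled wild-type and changed sign with at least 200 genes (0.18), with scran (0.12) and per cell (0.099, chosen after seeing the data), and the cause was not tested. In the library labelled SCD it was 0.23, and moved to 0.54 with at least 200 genes, 1.21 with separate clustering, 1.10 over erythroid-like cells and 0.74 per cell (added after seeing the data), with 0.085 without doublets as its lowest value. The T-like and erythroid-like cells were those of the one clustering throughout, so the alternatives did not vary the reference. By their own naming, 0 and 0 cells were T-like at resolution 0.5 and with at least 200 genes, and 0 and 63 with separate clustering. The numbers were 64 and 98 with all genes, 98 and 222 at resolution 2 and 82 and 271 without limits on mitochondrial and ribosomal-protein UMIs, against 44 and 67 here. Thinned to 500 and 2000 UMIs, 7.98% and 21.7% of RPM-like cells held H2-Ab1 in the library labelled wild-type and 47.9% and 87.6% in the library labelled SCD. With separate clustering the share of H2-DMb2 in RPM-like cells of the library labelled SCD was 28.7% and its H2-DMb1 number 11.1 per 100 H2-Ab1 UMIs; with at least 200 genes these were 12.6% and 17.6.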

Other observations

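H2-Eb2, a β chain gene beside H2-Eb1, was not among the 10 genes and had its highest level in Ccr7 DC-like cells. It stood at 892 (850 to 936) and 1557 (1511 to 1605) CPM there in the libraries labelled wild-type and SCD, against 327 and 410 CPM in cDC2-like and 108 and 109 CPM in B-like cells, and was found in 87.2% and 93.7% of Ccr7 DC-like cells. Its promoter window held the X and Y letters 130 and 101 bases before the annotated start. The window lies at chr17:34325514-34325589 of GRCm38.p6 on the + strand, outside annotated exons and introns, and is given with these letters in capitals.
H2-Eb2: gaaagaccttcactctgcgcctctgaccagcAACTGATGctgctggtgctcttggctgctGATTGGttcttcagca

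H2-Ab1 was not evenly present in Ccr7 DC-like cells, where 25.1% (21.1 to 29.4) and 10.5% (8.24 to 13.2) of cells held 0 UMIs of it, against 1.31% and 1.35% of cDC2-like cells. The sum of H2-Ab1, H2-Aa, H2-Eb1 and Cd74 was 0 in 5.47% and 0.471% of Ccr7 DC-like cells.

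Cells that kept no name, among them clusters with macrophage and lymphocyte or DC markers together, carried 21.3% and 13.6% of all H2-Ab1 UMIs, and are in none of the class comparisons.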
